A study of Mus musculus with 29 samples.

Results

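The 10 genes described here encode nuclear receptors chosen for their roles in photoreceptors, although Nr2f1, Thra and Rxrb had their highest mean levels in bipolar populations: the thyroid hormone receptors Thrb and Thra, the retinoid X receptors Rxrg, Rxra and Rxrb, the ROR receptors Rorb and Rora, and the orphan receptors Nr2e3, Esrrb and Nr2f1. They were found by gene symbol, and all 10 are among the 24062 genes of the RNA-seq table and passed the filter on low counts, which kept 14024 genes. The study profiled sorted cells of the adult mouse retina to compare bipolar cells, the interneurons that receive photoreceptor output, with rods and cones. RNA-seq was available for 5 populations with 3 libraries each, and ATAC-seq, which measures how accessible chromatin is to a transposase, for 6 populations with 2 libraries each.

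All bipolar cells (pan-BC) were sorted by GFP from mice of genotype Otx2-GFP+/- for RNA-seq, at postnatal day 44 to 47. ON bipolar cells (ON-BC) and OFF bipolar cells (OFF-BC) came from Otx2-GFP+/-; Grm6-YFP+/+ mice at postnatal day 42 to 48 and were separated by YFP, with OFF-BC sorted in a second pass. GFP was inserted at the end of the endogenous Otx2 gene, so every bipolar library carries 1 modified Otx2 allele, and YFP was driven by the Grm6 promoter. The pan-BC mice of the ATAC-seq libraries carry Otx2-GFP+/-; Grm6-YFP+/+ on their labels and were taken at day 43 and 44, and the ON-BC and OFF-BC mice for ATAC-seq at day 42 and 46. Rods came from Nrl-eGFP mice, and photoreceptors of Nrl-eGFP;NrlKO mice, which form no rods, stood in for blue cones. Green cones, with ATAC-seq only, came from Opn1mw-GFP mice. BC5D bipolar cells were probably missed by both the ON and the OFF sort. The photoreceptor libraries, all from day 56 mice, were made by the laboratory for previous work and re-analyzed, so cell class, study and age cannot be told apart in any comparison of bipolar cells with photoreceptors. Nothing in the labels ties a replicate to 1 animal, and the p-values measure the spread between sorted samples.

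Each RNA-seq library held 12329548 to 26266746 counted reads and each ATAC-seq library 4176776 to 12345845. Nrl, the transcription factor deleted in the blue cone mice, had 11476 to 16599 normalized counts in rods and 486 to 764 in blue cones. The 10 rod markers summed to 2016481 to 2758617 normalized counts in rods, and the 10 cone markers to 1711852 to 1927865 in blue cones. Bipolar markers summed to 119280 to 166460 in the 9 bipolar libraries and to at most 38071 in photoreceptors. In the same bipolar libraries the rod markers summed to 10158 to 55749 and the cone markers to 40500 to 156083. Gnb3, a G protein subunit that ON bipolar cells also use, carried much of the cone marker sum, with a mean of 76280 in pan-BC and 92915 in ON-BC, and Kcne2 stood at 58.9% to 76.0% of its blue cone mean in pan-BC and ON-BC. Pde6c and Cnga3 were at 0.0212% to 1.64% in all 9 bipolar libraries. Other cone markers stood higher in pan-BC, with Opn1sw at 2.3% to 4.15%, Arr3 at 2.79% to 4.0% and Pde6h at 3.77% to 6.52%. In OFF-BC replicate 3 these were at 4.57%, 9.17% and 14.1%, and in ON-BC at 0.0366% to 0.407%. Gngt2 stood at 40.6% to 63.0% of its blue cone mean in OFF-BC and 18.2% to 20.3% in pan-BC, and Gnat2 at 8.46% to 12.9% in OFF-BC. The median of the 10 cone markers ran from 0.990% in an ON-BC library to 8.82% in an OFF-BC library. The markers of amacrine, ganglion and horizontal cells summed to 490.4 to 2481 over all libraries, and those of Muller glia and other cells to 1251 to 3637. Among the latter, Sox9 was called between ON-BC, with a mean of 25.1, and OFF-BC, with 1400.

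Nuclear receptors are transcription factors that bind DNA through a pair of zinc fingers, often at copies of the half-site AGGTCA, and many switch from repressor to activator when a hormone or lipid binds. Thyroid hormone receptors and many others bind DNA as heterodimers with an RXR, whereas ROR receptors and the estrogen-related receptors can bind as monomers without a known hormone. In photoreceptors, NR2E3 acts with NRL to establish rod identity and represses cone genes, and the TRβ2 isoform of Thrb is needed for green opsin expression. RXRγ restrains blue opsin, and RORβ is required for rods to form.

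The sequences just upstream of 8 start sites are shown first: the 7 whose accessibility differed in a comparison, and the upstream Thrb start for contrast with its downstream one. They were chosen after their values were seen. They are the 250 bases before RefSeq start sites in GRCm38.p6, given 5′ to 3′ on the strand of the gene, and none overlaps an exon of its own gene. Capitals mark the letters AGGTCA (nuclear receptor half-site), TAATCC (the core bound by K50 homeodomain factors such as OTX2 and CRX), TAATTA (the Q50 homeodomain core) or TGCTGA (the half-site of MAF factors such as NRL), on either strand, where TAATCC and TAATTA share the letters TAAT.
Nr2e3, chr9:59950080-59950329, minus strand: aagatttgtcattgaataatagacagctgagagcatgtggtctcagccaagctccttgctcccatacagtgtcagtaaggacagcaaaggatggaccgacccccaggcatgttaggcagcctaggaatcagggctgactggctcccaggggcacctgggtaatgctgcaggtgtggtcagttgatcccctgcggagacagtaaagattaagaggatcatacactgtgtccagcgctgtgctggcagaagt
Esrrb downstream start, chr12:86421394-86421643, plus strand: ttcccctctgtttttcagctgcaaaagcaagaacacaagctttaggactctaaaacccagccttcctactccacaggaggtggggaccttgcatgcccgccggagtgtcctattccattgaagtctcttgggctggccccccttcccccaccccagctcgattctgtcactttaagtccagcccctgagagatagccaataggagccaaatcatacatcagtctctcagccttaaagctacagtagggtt
Rxrg upstream start, chr1:167598112-167598361, plus strand: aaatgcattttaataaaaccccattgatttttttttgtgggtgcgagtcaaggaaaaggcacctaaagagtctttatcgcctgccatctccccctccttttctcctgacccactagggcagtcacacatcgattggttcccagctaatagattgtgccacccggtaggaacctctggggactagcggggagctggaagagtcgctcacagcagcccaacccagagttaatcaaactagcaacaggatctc
Rxrg downstream start, chr1:167618015-167618264, plus strand: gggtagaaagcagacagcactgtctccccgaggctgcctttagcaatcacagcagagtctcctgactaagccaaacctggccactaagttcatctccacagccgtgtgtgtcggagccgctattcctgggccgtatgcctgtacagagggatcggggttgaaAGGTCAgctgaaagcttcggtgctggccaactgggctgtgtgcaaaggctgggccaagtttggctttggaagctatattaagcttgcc
Rora upstream start, chr9:68653536-68653785, plus strand: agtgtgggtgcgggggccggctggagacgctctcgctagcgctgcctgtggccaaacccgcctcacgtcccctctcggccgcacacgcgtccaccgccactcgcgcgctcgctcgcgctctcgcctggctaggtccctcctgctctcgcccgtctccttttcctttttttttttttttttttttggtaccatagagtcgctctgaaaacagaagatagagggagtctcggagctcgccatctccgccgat
Nr2f1 upstream start, chr13:78198874-78199123, minus strand: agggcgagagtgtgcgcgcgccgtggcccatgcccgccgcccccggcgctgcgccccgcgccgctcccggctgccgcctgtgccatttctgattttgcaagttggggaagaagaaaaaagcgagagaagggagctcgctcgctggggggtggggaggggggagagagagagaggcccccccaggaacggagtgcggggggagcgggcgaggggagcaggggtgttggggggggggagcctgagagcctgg
Thrb upstream start, chr14:17660710-17660959, plus strand: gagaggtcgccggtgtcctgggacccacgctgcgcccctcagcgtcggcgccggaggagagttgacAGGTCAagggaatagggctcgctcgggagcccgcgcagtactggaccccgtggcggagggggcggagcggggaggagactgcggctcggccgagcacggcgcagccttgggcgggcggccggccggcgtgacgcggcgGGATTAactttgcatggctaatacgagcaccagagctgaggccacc
Thrb downstream start, chr14:17981394-17981643, plus strand: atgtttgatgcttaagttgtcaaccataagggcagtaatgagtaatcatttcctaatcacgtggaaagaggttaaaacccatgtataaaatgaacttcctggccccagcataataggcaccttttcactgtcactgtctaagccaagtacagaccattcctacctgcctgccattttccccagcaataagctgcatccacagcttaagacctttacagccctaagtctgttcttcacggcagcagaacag
Of these 8 windows, that of the upstream Thrb start holds 1 AGGTCA, 184 bases before the start, and 1 TAATCC, 46 bases before it. The window of the downstream Rxrg start holds 1 AGGTCA, 88 bases before the start, and the other 6 windows hold none of the 4 words. Among 32851 windows of the same length before RefSeq starts, AGGTCA occurs in 14.0%, TAATCC in 6.25%, TAATTA in 4.84% and TGCTGA in 16.1%. A missing word says only that these exact letters are not in the window.

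**Figure D1:**
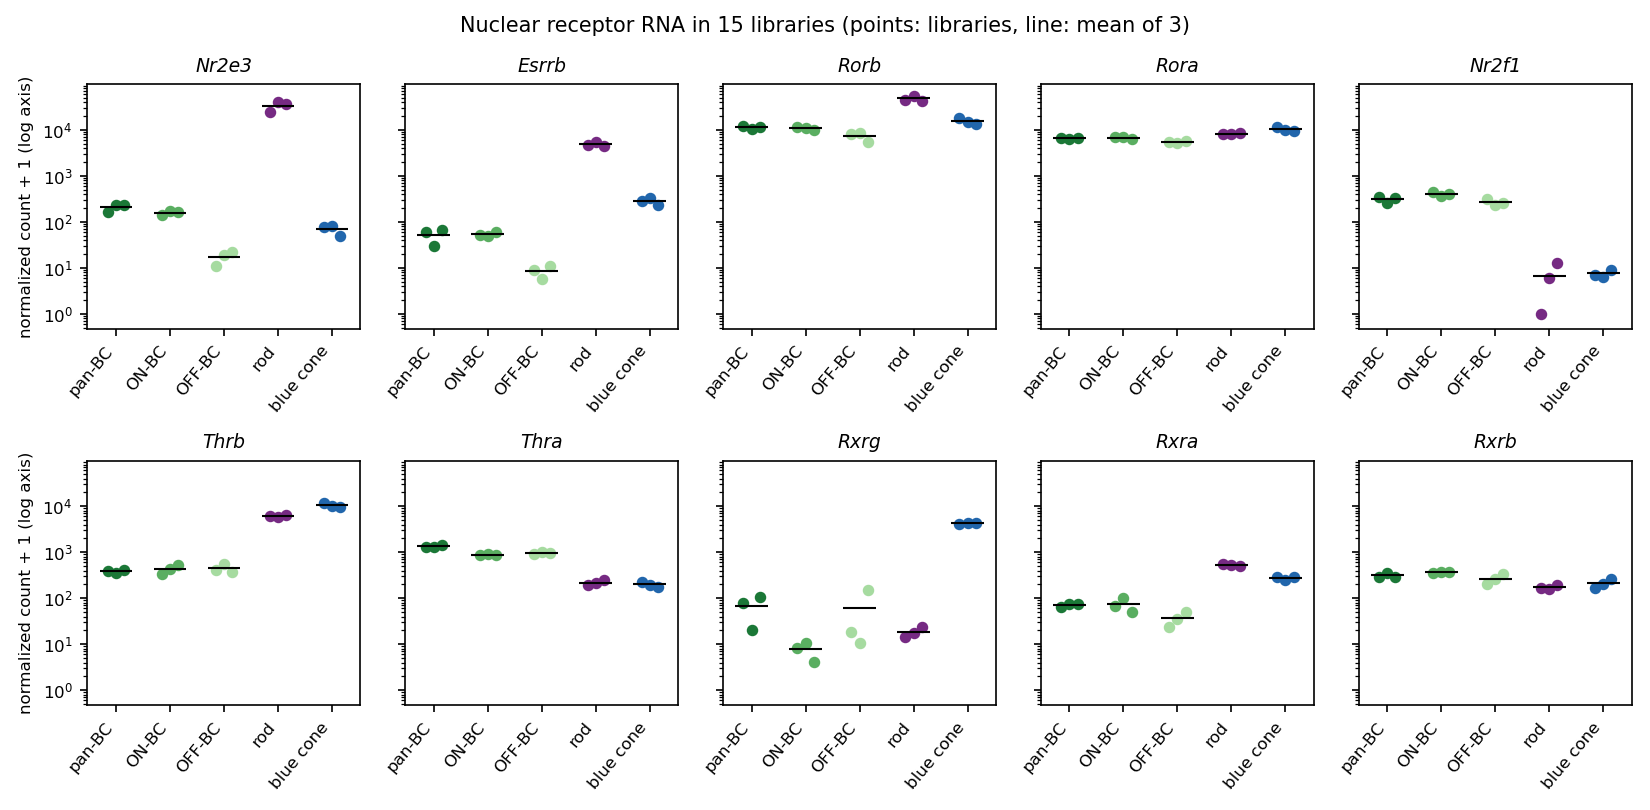
Normalized RNA-seq count plus 1 (log axis) of each of the 10 receptors in the 15 libraries, with 1 point per library and a line at the mean of 3. Nr2e3, Esrrb and Rorb peak in rods, Rxrg in blue cones and Thrb in both photoreceptor types, whereas Nr2f1 and Thra are highest in the bipolar populations.

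Thyroid hormone receptors moved in opposite directions between the cell classes. Thrb (chr14:17660960-18038088, plus strand) had 9546, 10299 and 11923 normalized counts in the blue cone libraries and 5790, 6276 and 6526 in the rod libraries. In pan-BC it had 349, 391 and 403, in ON-BC 328, 429 and 535, and in OFF-BC 379, 412 and 565. All 6 photoreceptor libraries lay above all 9 bipolar libraries, and the 3 bipolar populations overlapped. The log2 fold change, here always of log2(normalized count + 1), was -4.02 ± 0.16 (SE) for pan-BC against rods (adjusted p = 3.31e-11, limma tested against a log2 fold change of 1) and -4.79 ± 0.16 for pan-BC against blue cones (adjusted p = 8.83e-12). A bulk library cannot tell fewer cells with a transcript from less transcript per cell. The remaining Thrb level in the bipolar libraries was 5.29% to 9.11% of the rod mean and 3.10% to 5.33% of the blue cone mean. In ON-BC, where the median of the 10 rod markers was 0.714% to 1.02% of their rod mean and that of the cone markers 0.990% to 1.26% of their blue cone mean, Thrb stood at 5.29% to 8.63% and 3.10% to 5.05%. In pan-BC the cone marker median was 3.75% to 5.38% and Thrb 3.3% to 3.8% of the blue cone mean, and in OFF-BC 1.99% to 8.82% and 3.57% to 5.33%. The part of cone transcripts in the bipolar Thrb level was not tested.

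Thra (chr11:98741785-98769006, plus strand), the more widely expressed thyroid hormone receptor gene, had the reverse pattern. It had 1322, 1322 and 1430 normalized counts in pan-BC, 919, 959 and 998 in OFF-BC and 861, 887 and 906 in ON-BC. It had 192, 211 and 245 in rods, and the blue cone values were 178, 196 and 229, so that every bipolar library exceeded every photoreceptor library. Against rods, pan-BC was higher by a log2 fold change of 2.65 ± 0.12 (adjusted p = 1.16e-09), and against blue cones by 2.76 ± 0.12 (adjusted p = 1.29e-09). Scaled by exon length, the mean of Thra in pan-BC was 426 normalized counts per kb and that of Thrb 58.1, whereas in rods Thra had 67.8 and Thrb 945. Of the exon bases of Thra, 8.3% overlap the antisense gene Nr1d1, and the library kit does not mark strand, so reads from that stretch cannot be told apart.

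The retinoid X receptors, the shared dimer partners, each had a pattern of their own. Rxrg (chr1:167598362-167639623, plus strand) had 4179, 4260 and 4430 normalized counts in blue cones but only 13.6, 16.4 and 22.7 in rods. It had 76.6, 19.2 and 104 in the pan-BC replicates 1 to 3, 3.08 to 9.8 in ON-BC, and 17.9, 9.61 and 150.1 in the OFF-BC replicates. The blue cone libraries stood far above all others, and bipolar replicates of 1 population differed widely. Rods were lower than blue cones by a log2 fold change of -7.88 ± 0.75 (adjusted p = 8.6e-07) and pan-BC by -6.29 ± 0.75 (adjusted p = 8.4e-06). Between ON-BC and OFF-BC the log2 fold change was -2.13 ± 0.75 (adjusted p = 0.705) and became -0.99 without OFF-BC replicate 3. That library also had the highest cone marker levels of the OFF-BC libraries, with a median of 8.82% of the blue cone mean against 1.99% and 3.18% in the other two. Rxrg itself was at 3.50% of the blue cone mean there, and at 0.417% and 0.224% in the other OFF-BC libraries. Of the 10 cone markers, 9 were called between ON-BC and OFF-BC, 7 of them lower in ON-BC and 2, Gnb3 and Kcne2, higher. The part of cone transcripts in the bipolar Rxrg level was not tested.

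Rxra (chr2:27677201-27763319, plus strand) was highest in rods, with 495, 539 and 559 normalized counts, followed by blue cones with 247, 288 and 290.3. The bipolar libraries ranged from 22.4 to 99.0, below every photoreceptor library. Pan-BC was lower than rods by a log2 fold change of -2.89 ± 0.27 (adjusted p = 6.07e-06) and lower than blue cones by -1.95 ± 0.27 (adjusted p = 0.00491). For ON-BC against OFF-BC the log2 fold change of 1.02 ± 0.27 did not pass (adjusted p = 1), although the 3 ON-BC libraries, at 49.3, 68.1 and 99.0, all exceeded the highest OFF-BC library at 48.6. Rxrb (chr17:34031812-34038403, plus strand) varied least among the RXR genes. Its library values ran from 156 in a rod library to 372 in an ON-BC library, and none of its 4 comparisons passed. The log2 fold change of pan-BC against rods was 0.87 ± 0.19, with an interval of 2 SE from 0.49 to 1.24. Per kb of exon, pan-BC held 113 normalized counts of Rxrb, 12.9 of Rxra and 28.2 of Rxrg, and blue cones 75.4, 50.3 and 1815.

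Per kb of exon, the ROR receptors had the highest mean levels of the 10 genes in each bipolar population. Rorb (chr19:18930609-19111196, minus strand) had 42865, 45452 and 55385 normalized counts in rods, against 13302, 15097 and 18260 in blue cones. It had 10496 to 12384 in pan-BC, 10119 to 11610 in ON-BC and only 5454, 8220 and 8700 in OFF-BC. The rod libraries stood above all others, and the blue cone libraries above all bipolar libraries by a narrow margin. Pan-BC was lower than rods by a log2 fold change of -2.05 ± 0.18 (adjusted p = 3.54e-05), and rods were higher than blue cones by 1.63 ± 0.18 (adjusted p = 0.0096). The second of these calls was lost without rod replicate 2 (adjusted p = 0.0503). It was also lost in a fit of only rods and blue cones with replicate numbers as a block (adjusted p = 0.0724). The difference between pan-BC and blue cones was small, at -0.42 ± 0.18, with an interval of 2 SE from -0.77 to -0.07.

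Rora (chr9:68653786-69388246, plus strand) varied the least of the pair. It had 9566, 9819 and 11371 normalized counts in blue cones, 8097, 8133 and 8406 in rods, and 5187 to 6893 over the 9 bipolar libraries. The photoreceptor libraries were all higher than the bipolar libraries, but none of the 4 comparisons passed. The log2 fold changes of pan-BC were -0.34 ± 0.10 against rods and -0.66 ± 0.10 against blue cones. Per kb of exon, Rora reached 525 and Rorb 1220 normalized counts in pan-BC.

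Among the orphan receptors, Nr2e3 (chr9:59942771-59950079, minus strand) had the widest range. In rods it had 24669, 36497 and 39985 normalized counts. The blue cones, which lack NRL, had 48.9, 76.7 and 78.9. It had 162, 235 and 235 in pan-BC, 142, 158 and 170.5 in ON-BC but 10.1, 18.0 and 21.0 in OFF-BC. Each of the 4 comparisons passed, and only pan-BC and ON-BC overlapped among neighbors in the order of levels. Rods exceeded blue cones by a log2 fold change of 8.93 ± 0.26 (adjusted p = 1.61e-13), and pan-BC lay below rods by -7.31 ± 0.26 (adjusted p = 1.06e-12). ON-BC exceeded OFF-BC by 3.24 ± 0.26 (adjusted p = 7.9e-06). Pan-BC exceeded blue cones by 1.62 ± 0.26 (adjusted p = 0.0413), a call that was lost in 8 of 25 other settings, among them without pan-BC replicate 2 or 3, blue cone replicate 3 or rod replicate 3 (adjusted p over the 8 of 0.0528 to 0.186).

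Esrrb (chr12:86361117-86521628, plus strand), an estrogen-related receptor linked to rod survival and energy metabolism, was likewise highest in rods and lowest in OFF-BC. It had 4431, 4619 and 5543 normalized counts in rods, against 225, 283 and 329 in blue cones, 28.3, 59.6 and 63.6 in pan-BC, 48.0, 51.6 and 58.5 in ON-BC but 4.81, 7.82 and 9.93 in OFF-BC. Rods were higher than blue cones by a log2 fold change of 4.13 ± 0.29 (adjusted p = 1.35e-07), pan-BC lower than rods by -6.64 ± 0.29 (adjusted p = 1.79e-11), and ON-BC higher than OFF-BC by 2.7 ± 0.29 (adjusted p = 0.000428). Pan-BC was also lower than blue cones, at -2.51 ± 0.29 (adjusted p = 0.000215).

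Nr2e3 and Esrrb, the genes called between ON-BC and OFF-BC, moved together with rod transcripts. Nr2e3 was at 0.480% to 0.697% of its rod mean in pan-BC, 0.422% to 0.506% in ON-BC and 0.0298% to 0.0622% in OFF-BC. Esrrb was at 0.581% to 1.31%, 0.987% to 1.20% and 0.0988% to 0.204%. The median of the 10 rod markers was 0.902% to 1.05% in pan-BC, 0.714% to 1.02% in ON-BC and 0.0833% to 0.127% in the double-sorted OFF-BC. Of the rod markers, 6 of 10 were called higher in ON-BC and none lower. In ATAC-seq, 1 of 26 tested Esrrb regions was called more open in ON-BC, none less open, and neither Nr2e3 region was called. That Esrrb region, in an intron 10.2 kb downstream of the nearest start, reached 122 and 130 normalized counts for ON-BC. OFF-BC stood at 35.0 and 24.3 there, and rods at 370 and 329. The log2 fold change was 2.08 ± 0.24 (limma, adjusted p = 0.00517), called in all 18 other settings. The sort, like the cell type, differs between ON-BC and OFF-BC. The part of rod transcripts in the RNA differences, and of rod chromatin in the ATAC-seq difference, was not tested.

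**Figure D2:**
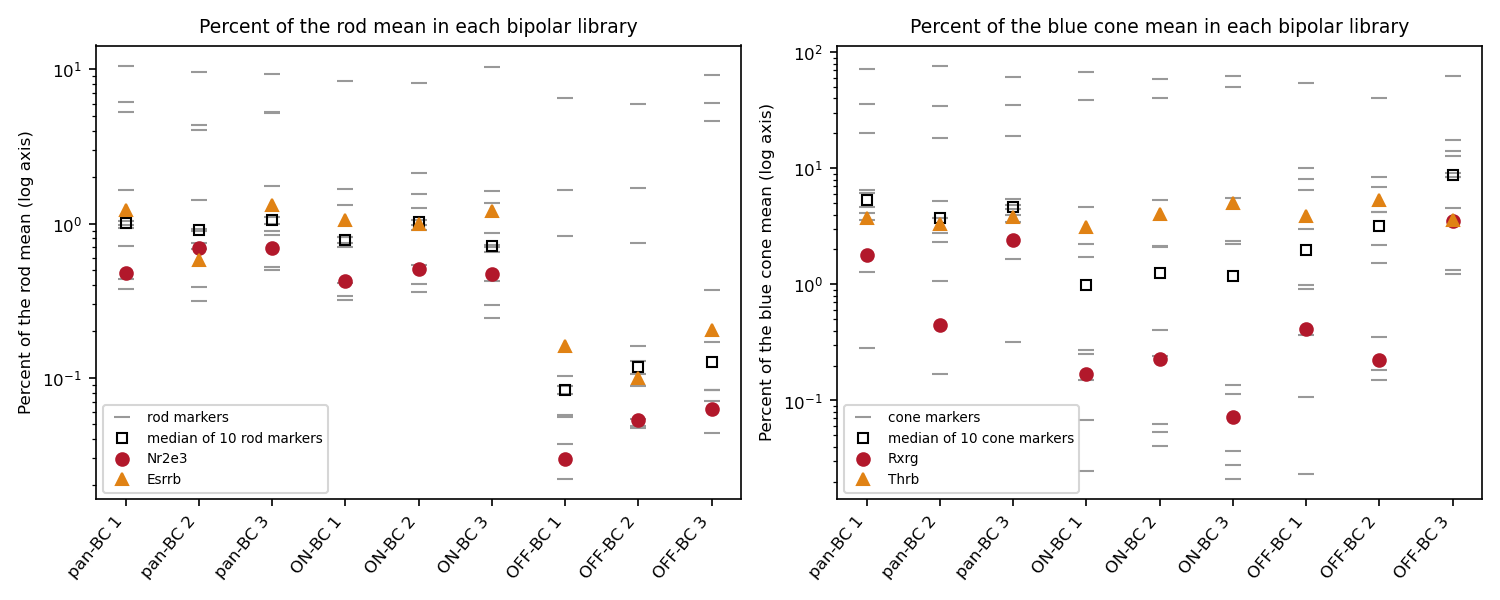
Level of receptors and of photoreceptor markers in each of the 9 bipolar RNA-seq libraries, as a percent of their mean in rods (left, Nr2e3 and Esrrb with 10 rod markers) or in blue cones (right, Rxrg and Thrb with 10 cone markers), on a log axis. Squares mark the median of the markers, dashes single markers. Nr2e3 and Esrrb fall with the rod marker median from ON-BC to OFF-BC, whereas Thrb stays between 3.10% and 5.33% of the blue cone mean.

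Nr2f1 (chr13:78188973-78198873, minus strand), which encodes COUP-TFI, a regulator of cone opsin patterning and of neuronal development, was the receptor most restricted to bipolar cells. It had 250.2, 327 and 338 normalized counts in pan-BC, 233, 259 and 304 in OFF-BC and 356, 403 and 439 in ON-BC. In rods it had 0, 5.12 and 11.9, and in blue cones 5.31, 6.02 and 8.14. No bipolar library came near a photoreceptor library. Pan-BC was higher than rods by a log2 fold change of 6.14 ± 0.59 (adjusted p = 4.95e-07) and than blue cones by 5.36 ± 0.59 (adjusted p = 5.42e-06). The ratio of means was 53.8 against rods and 47.0 against blue cones. ON-BC exceeded OFF-BC in all libraries, but the log2 fold change of 0.59 ± 0.59 did not pass (adjusted p = 1).

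**Figure D3:**
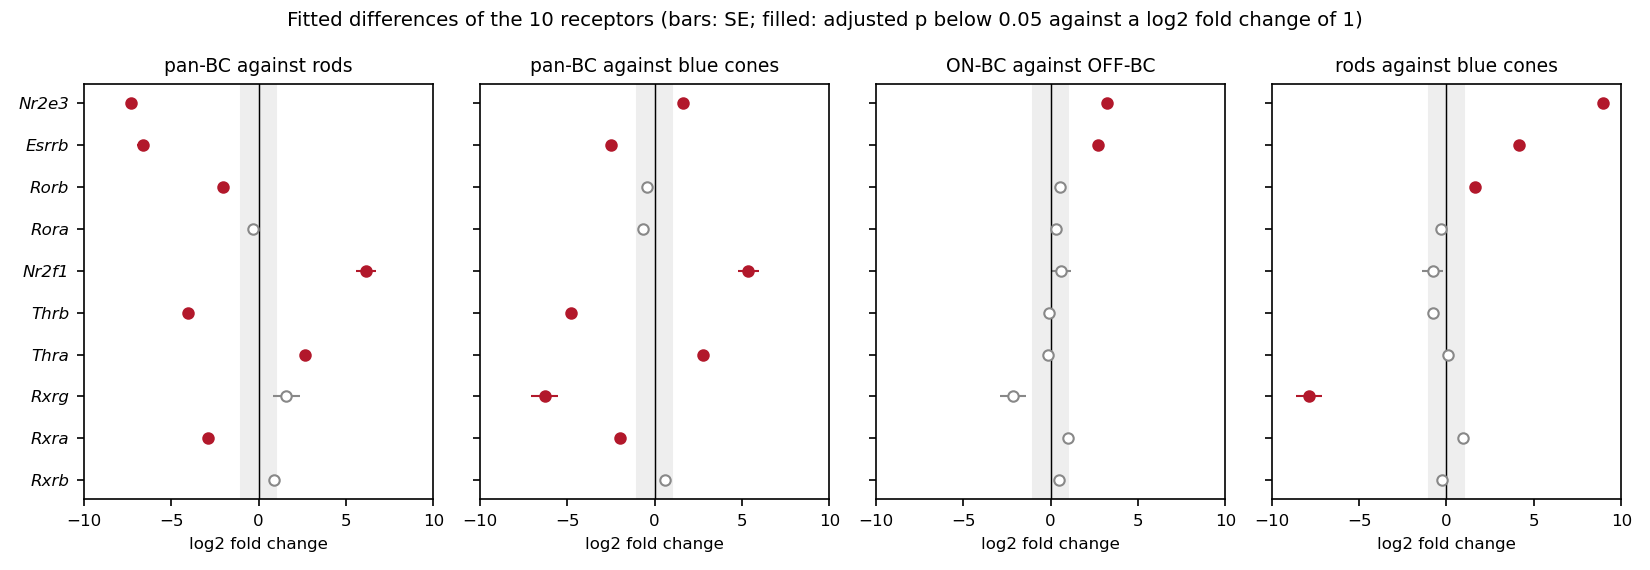
Log2 fold change (first population minus second, on log2(normalized count + 1)) of the 10 receptors in 4 comparisons, with SE bars. Filled points passed at an adjusted p below 0.05 against a log2 fold change of 1, whose range is shaded: 7, 7, 2 and 4 of 10 receptors from left to right.

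Counted over the set, pan-BC differed from rods in 7 of 10 receptors, where 43.6% of all 14024 genes were called. Of these 7, Nr2f1 and Thra were higher and Nr2e3, Esrrb, Thrb, Rxra and Rorb lower in the bipolar libraries. The median log2 fold change of the set was -1.19, and that of all genes 0.21. Pan-BC differed from blue cones in 7 of 10 (36.3% of all genes), with Nr2f1, Thra and Nr2e3 higher and Rxrg, Thrb, Esrrb and Rxra lower, and medians of -0.54 for the set and 0.16 for all genes. Between rods and blue cones 4 of 10 were called (15.9% of all genes), with Nr2e3, Esrrb and Rorb higher in rods and Rxrg higher in blue cones (medians of -0.09 for the set and 0.00 for all genes). Between ON-BC and OFF-BC 2 of 10 were called (6.55% of all genes), Nr2e3 and Esrrb, with medians of 0.52 for the set and -0.02 for all genes. Comparisons that share pan-BC, rod or blue cone libraries are not independent of each other.

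The rest of the superfamily was measured as background. Of 39 other nuclear receptor genes, 25 passed the filter. Pan-BC differed from rods in 8 of 25, 32.0% where 43.6% of all genes were called, with 5 higher and 3 lower and a median of -0.32. From blue cones it differed in 9 of 25, 36.0% against 36.3% of all genes, with 4 higher and 5 lower and a median of -0.41. Rods differed from blue cones in 5 of 25, 20.0% against 15.9%, and ON-BC from OFF-BC in 2 of 25, 8.0% against 6.55%. Ppara, a fatty acid sensor, had a mean of 1457 normalized counts in rods but 0.408 in pan-BC, and 352 in blue cones, with a log2 fold change of -10.12 ± 0.51 for pan-BC against rods (adjusted p = 4.18e-11). Nr4a1, an immediate early gene, had 1993 in blue cones and 98.7 in rods (fold change on the log2 scale of rods against blue cones -4.31 ± 0.49, adjusted p = 2.98e-05). Vdr, the vitamin D receptor, had 26.5 in blue cones and 0.336 in pan-BC (-4.32 ± 0.54, adjusted p = 3.51e-05).

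**Figure D4:**
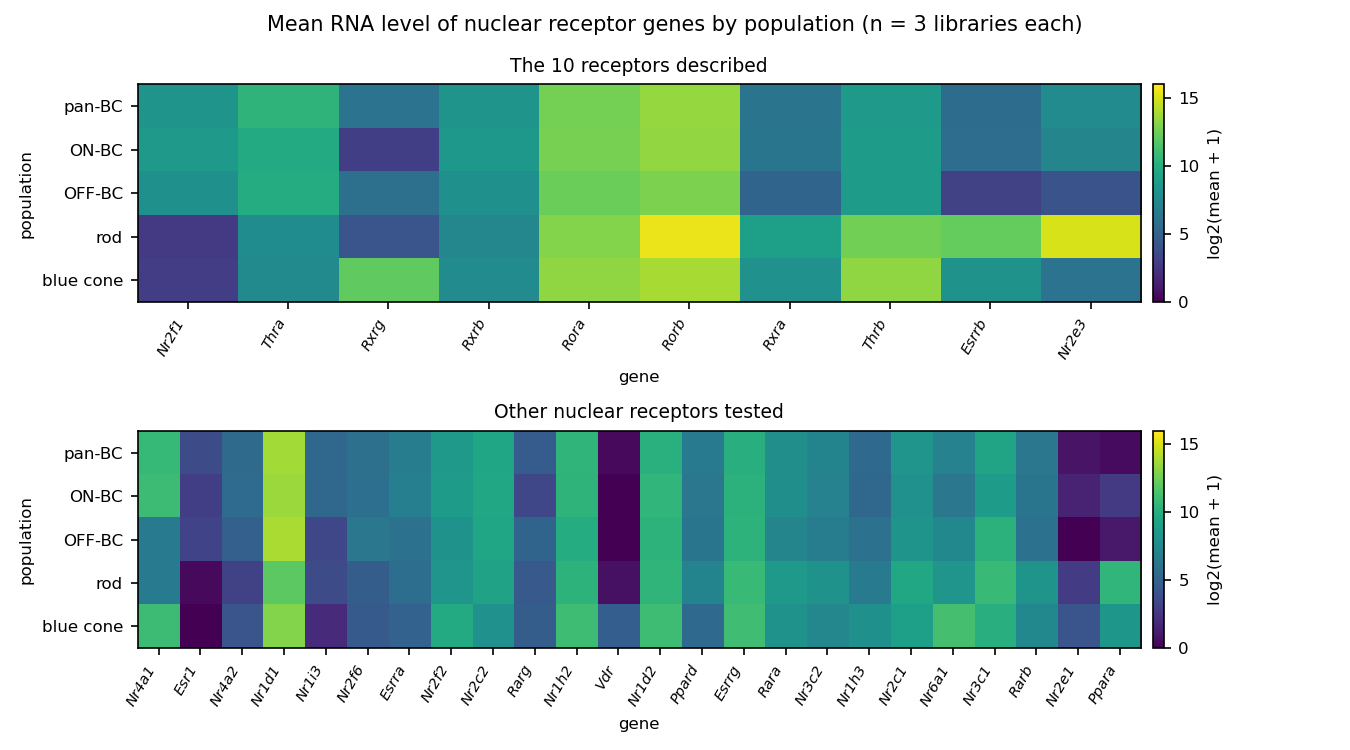
Mean RNA level, as log2(mean normalized count + 1), of the 10 receptors (top) and of other nuclear receptors that passed the filter (bottom) in 5 populations, n = 3 libraries each, ordered from higher in pan-BC than in rods on the left to lower on the right. Nr2f1 and Thra stand at the left of the upper row and Nr2e3 at its right, and Ppara ends the lower row.

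Coregulators, thyroid hormone genes and retinoic acid genes were counted in the same way. Of 25 coregulators, pan-BC differed from rods in 11, 44.0% where 43.6% of all genes were called, with 5 higher and 6 lower, and from blue cones in 10, 40.0% against 36.3%, with 7 higher and 3 lower. Rods differed from blue cones in 3, 12% against 15.9%. In the ON-BC against OFF-BC comparison limma called 0 of 25, where 6.55% of all genes were called. Of the 25, 2 had an unadjusted p below 0.05, edgeR called 1 and DESeq2 called 0. Limma tested against 0 with a fitted log2 fold change of at least 1 called 4, where 2002 of all 14024 genes were called. Zmiz1 had a mean of 3091 normalized counts in pan-BC against 16.1 in rods (log2 fold change 7.52 ± 0.29, adjusted p = 3.03e-12), and Hr, a corepressor of thyroid hormone receptors, 1502 and 49.5 (4.90 ± 0.13, adjusted p = 9.01e-14). Pias3, a SUMO ligase that acts on NR2E3 in rods, had 13045 in rods and 791 in pan-BC (-4.04 ± 0.12, adjusted p = 5.91e-13), and Ppargc1a, a coactivator of mitochondrial genes, 3531 and 298 (-3.56 ± 0.18, adjusted p = 1.04e-09).

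Of 12 genes that transport or convert thyroid hormone, 9 could be tested, and 3 differed between pan-BC and rods (33.3% against 43.6% of all genes), 3 between pan-BC and blue cones (33.3% against 36.3%), 2 between rods and blue cones (22.2% against 15.9%) and 1 between ON-BC and OFF-BC (11.1% against 6.55%). The transporter Slc7a8 had a mean of 2261 normalized counts in blue cones and 237 in pan-BC (log2 fold change -3.24 ± 0.15, adjusted p = 1.56e-09). The carrier Slc17a4 had 66.9 in rods and 6.78 in blue cones (3.90 ± 0.78, adjusted p = 0.00723). Slco1c1, with 16.9 in pan-BC and 0.754 in blue cones (3.30 ± 0.49, adjusted p = 0.000531), and Ttr, with 58.8 and 2.77 (4.10 ± 0.73, adjusted p = 0.00126), rested on few reads. Of 12 retinoic acid genes, 7 could be tested, and 2 differed between pan-BC and rods (28.6% against 43.6%), 4 between pan-BC and blue cones (57.1% against 36.3%), 2 between rods and blue cones (28.6% against 15.9%) and 1 between ON-BC and OFF-BC (14.3% against 6.55%). Dhrs3, a retinaldehyde reductase, had 32873 in rods and 2460 in pan-BC (-3.73 ± 0.17, adjusted p = 1.36e-10). Rdh10, which makes retinaldehyde, had a mean of 384 in blue cones and 96.3 in rods (-1.97 ± 0.30 for rods against blue cones, adjusted p = 0.0184). The retinol receptor Stra6 had 16 in pan-BC and 88.2 in blue cones (-2.43 ± 0.55, adjusted p = 0.0276), and the binding protein Crabp2 13.8 and 1.25 (2.77 ± 0.53, adjusted p = 0.00707).

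Across the 15 RNA-seq libraries, the genes with the most similar profile to each receptor were named by Pearson's r of log2(normalized count + 1) among 10148 genes with a mean of at least 100 normalized counts. These libraries form 5 populations, so each r mainly follows population means and is given as a description. Nr2e3 was closest to Cnga1 (r = 0.995), Gnat1 (0.992) and Mef2c (0.991), and Esrrb to Reep6 (0.996), Herc3 (0.994) and Nrl (0.992). Thrb was closest to Uap1 (0.996), Arhgef2 (0.994) and Tram1 (0.993), and Thra to Kcnd2 (0.991), Tspan4 (0.989) and Inpp4b (0.987). Rxrg was closest to Otop3 (0.989), Wwc1 (0.969) and Agpat9 (0.967), Rxra to Pacsin2 (0.993), Icmt (0.991) and Nedd4l (0.989), and Rxrb to Ehmt2 (0.954), Emc10 (0.951) and Abhd17a (0.946). For Rorb these were Ypel2 (0.984), Secisbp2l (0.981) and Glb1l2 (0.977), for Rora Parp1 (0.974), Dgkd (0.972) and Mapkap1 (0.970), and for Nr2f1 Gmpr (0.990), Unc13c (0.989) and Sox6 (0.988).

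Chromatin at the same loci was measured in separate ATAC-seq libraries. The 10 genes have 19 RefSeq start sites, and 12 of these have a single accessible region of the table within 1000 bp upstream to 100 bp downstream that lies nearest to the gene. The Rxrb starts are shared with the neighboring gene Slc39a7, and 4 starts have no region. At the Nr2e3 start, the region had 489 and 475 normalized counts in rods but 24.6 and 33.2 in blue cones, and 4.48 to 23.4 in the 6 bipolar libraries. In green cones it had 159 and 87.3. Rods stood above every other population, with a log2 fold change of -4.62 ± 0.50 for pan-BC against rods (adjusted p = 5.76e-06) and of 4.03 ± 0.50 for rods against blue cones (adjusted p = 0.000236). Peaks were called there in both rod libraries and both single-sorted green cone libraries, in none of the 2 double-sorted green cone libraries and in no other library.

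Esrrb has a pair of start sites 60.5 kb apart, and only the downstream one differed. Its region had 664 and 672 normalized counts in rods, 199 to 249 in the 4 cone libraries, and 25.6 to 40.3 in the bipolar libraries. Pan-BC was below rods by -4.52 ± 0.23 (adjusted p = 2.05e-09) and below blue cones by -2.95 (adjusted p = 5.27e-06), and the 3 groups did not overlap, whereas rods against blue cones, at 1.57, missed the threshold (adjusted p = 0.0971). The upstream start had at most 20.7 normalized counts in any library.

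Rxrg was accessible at its upstream start in populations that hardly expressed it. The region had 186 to 304 normalized counts in the 4 cone libraries and 218 to 312 in the 6 bipolar libraries, but 24.9 and 48.8 in rods. The log2 fold change was 2.86 ± 0.25 for pan-BC against rods (adjusted p = 4.8e-06), -3.01 ± 0.25 for rods against blue cones (adjusted p = 1.29e-05) and -0.15 for pan-BC against blue cones (adjusted p = 1). The RNA of the same comparison differed by -6.29. The downstream start, 19.9 kb away, was weaker but also lowest in rods, with 1.56 and 4.07 against 14.9 to 33.7 in the bipolar and 23.1 to 27.2 in the blue cone libraries. It was called for pan-BC against rods (2.81 ± 0.59, adjusted p = 0.00811) and for rods against blue cones (-2.86, adjusted p = 0.0321). The first call was lost in 2 of 18 other settings, one of them without rod replicate 1, and the second in 7, among them without rod replicate 1 or either pan-BC or blue cone replicate (adjusted p of 0.0513 to 0.436).

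At Rora, which has start sites 636.1 kb apart, the upstream one was nearly closed in rods, with 3.12 and 0 normalized counts, against 92.8 and 101.5 in pan-BC and 29.8 and 31.8 in blue cones. Pan-BC was higher than rods by 5.60 ± 0.47 (adjusted p = 2.45e-07) and blue cones higher than rods (-3.97 ± 0.47 for rods against blue cones, adjusted p = 0.000165). The downstream start was open in every population, with 331 to 619, and did not pass in any comparison. The Nr2f1 upstream start followed its RNA, with 91.6 to 211 in the bipolar libraries, 2.34 and 2.71 in rods and 6.5 to 16.1 in the cone libraries (pan-BC against rods 5.53 ± 0.42, adjusted p = 7.9e-08). The regions at the starts of Thra, Rxra and Rorb were open in every library and none was called in the 4 comparisons, although the RNA of each of these genes differed between pan-BC and rods.

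Thrb has start sites 320.7 kb apart, of which the downstream one begins RefSeq isoform 2. The upstream start was open in all 12 libraries, with 253 to 720 normalized counts summed over its regions. The downstream one was weak throughout, with 46.1 and 57.7 in green cones, 24.3 and 15.6 in OFF-BC, 22.0 and 15.9 in blue cones, and at most 8.13 in pan-BC, ON-BC and rods. Peaks reaching the window around it were called in 5 of 14 libraries. These were 2 single-sorted and 1 double-sorted green cone libraries, 1 OFF-BC and 1 rod library, and no blue cone library. A region 1.2 kb upstream, just outside the window, had 47.5 and 56.2 in rods, and whether the rod peak belongs to it was not tested. OFF-BC exceeded ON-BC, at 2.99 and 0, with a log2 fold change of -3.36 ± 0.66 for ON-BC against OFF-BC (adjusted p = 0.0222), which was lost in 5 of 18 other settings, among them without ON-BC replicate 2 or either OFF-BC replicate (adjusted p over the 5 of 0.0515 to 0.39). RNA reads were counted per gene and do not tell the isoforms apart.

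**Figure D5:**
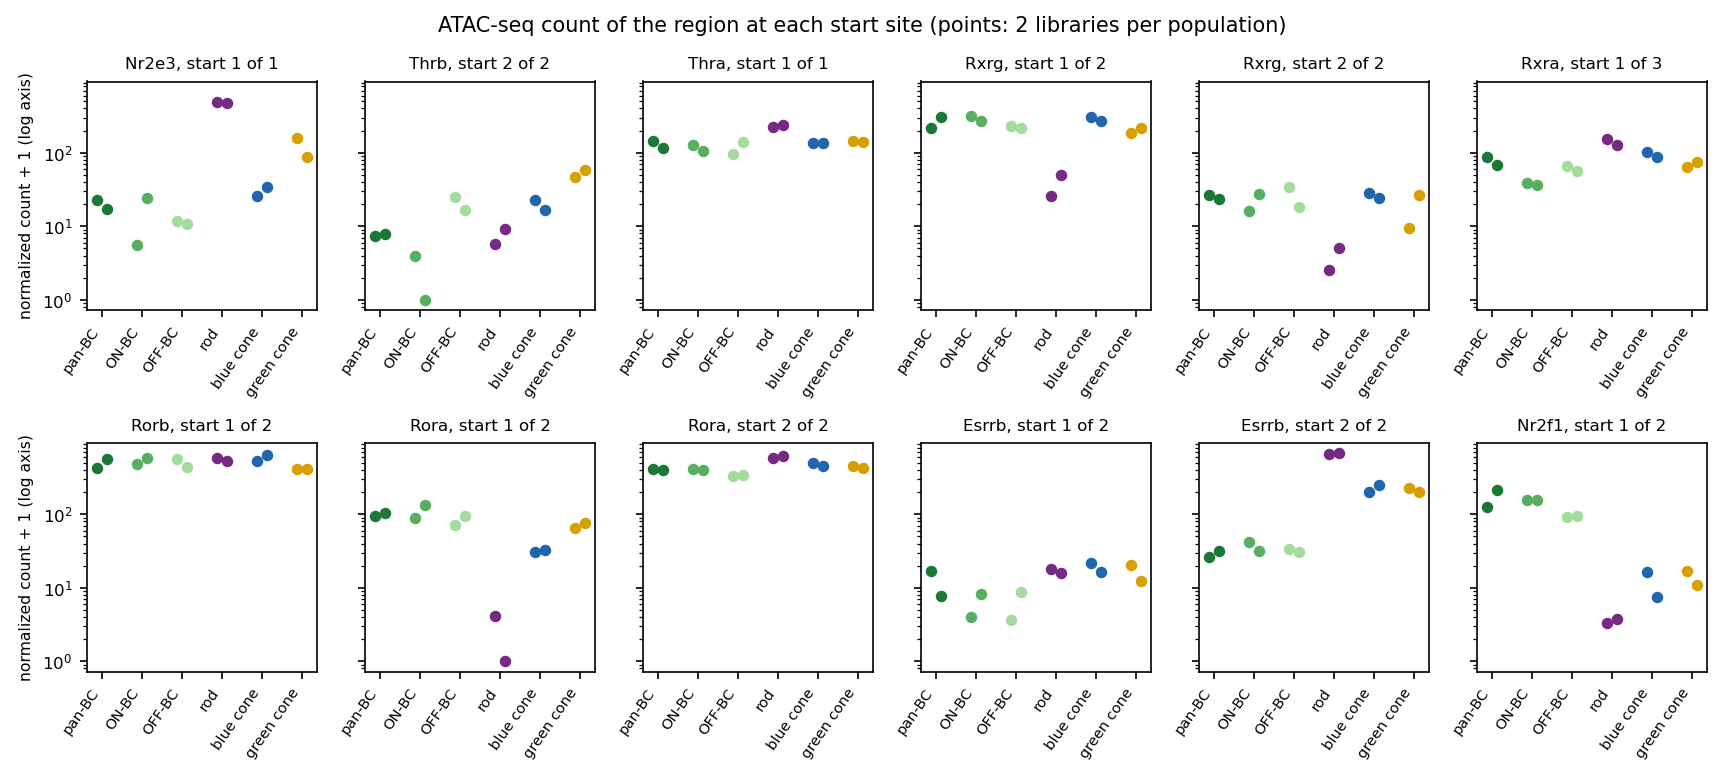
Normalized ATAC-seq count plus 1 (log axis) of the accessible region at 12 start sites of the receptors, with 1 point for each of 2 libraries in 6 populations. Nr2e3 and the downstream Esrrb start are highest in rods, the upstream Rora and Rxrg starts lowest in rods, and Nr2f1 is open in the bipolar libraries.

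Beyond the start sites, 233 of 110715 regions had a receptor as their nearest gene, 225 of them could be tested, and 136 lay in introns, 7 in exons and 90 outside the genes. Pan-BC and rods differed in 119 of 225 regions, 52.9% where 51.6% of all regions were called and the median log2 fold change of all regions was 1.16, and pan-BC and blue cones in 75 of 225, 33.3% where 35.9% were called. Rods and blue cones differed in 42 of 225, 18.7% where 10% of all regions were called, and in 25 without rod replicate 1 or without blue cone replicate 2. Of the 42, 9 were higher in rods and 33 higher in blue cones, where 1.46% and 8.56% of all regions were. ON-BC and OFF-BC differed in 12 of 225, 5.33% where 7.39% of all regions were called, with 5 more open in ON-BC and 7 in OFF-BC. Of all regions, 4.58% were more open in ON-BC and 2.8% in OFF-BC. Near the receptors, ON-BC and OFF-BC differed in 6 regions without ON-BC replicate 1 and 5 without OFF-BC replicate 1. The shares of all regions called without single libraries are not given here. With both directions counted together, the set thus lay near the background in 3 of the 4 comparisons. By direction, the set leaned less toward pan-BC than all regions did. Against rods, 78 regions were higher in pan-BC and 41 lower, where 40.3% and 11.2% of all regions were, with a set median of 0.65. Against blue cones, 46 were higher and 29 lower, where 28.8% and 7.13% were, with medians of -0.09 for the set and 0.54 for all regions. Regions of 1 gene share a locus.

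The genes differed from each other. At Nr2f1, 28 of 30 tested regions were more open in pan-BC than in rods and none less, and 24 of 30 more open than in blue cones, whereas 40.3% of all regions were more open in the first comparison and 28.8% in the second. These regions lay up to 1333.7 kb from the gene. At Esrrb, 18 of 26 were less open in pan-BC than in rods and none more, where 11.2% of all regions were less open. At Rorb, whose RNA was higher in rods, 21 of 36 regions were higher in pan-BC and 1 lower. At Rora the counts were 15 higher and 6 lower of 35, and at Thrb 6 higher and 10 lower of 55. None of the 6 Thra regions was called in any of the 4 comparisons.

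Single regions are shown where they carry these differences, chosen after their values were seen. They are the 201 bases around a peak summit, on the plus strand of GRCm38.p6, with the same words in capitals. The first 3 differed most between pan-BC and rods at their gene, and the last 2 were more accessible in OFF-BC than in ON-BC.
Thrb intron, chr14:18029217-18029417: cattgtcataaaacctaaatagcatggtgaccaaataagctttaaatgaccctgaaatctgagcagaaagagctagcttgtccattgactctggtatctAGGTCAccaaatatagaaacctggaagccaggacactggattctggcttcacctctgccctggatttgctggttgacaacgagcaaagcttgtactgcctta
Rxra intron, chr2:27679135-27679335: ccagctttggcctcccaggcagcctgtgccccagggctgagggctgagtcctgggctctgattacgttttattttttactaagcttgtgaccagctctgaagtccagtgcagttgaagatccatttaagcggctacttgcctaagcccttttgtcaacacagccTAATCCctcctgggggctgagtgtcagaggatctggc
Rxrg upstream, chr1:167554510-167554710: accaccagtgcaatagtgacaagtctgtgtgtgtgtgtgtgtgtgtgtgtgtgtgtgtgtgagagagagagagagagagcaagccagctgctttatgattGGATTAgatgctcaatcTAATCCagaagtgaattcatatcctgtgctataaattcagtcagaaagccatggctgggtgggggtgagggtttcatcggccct
Thrb intron, chr14:17963753-17963953: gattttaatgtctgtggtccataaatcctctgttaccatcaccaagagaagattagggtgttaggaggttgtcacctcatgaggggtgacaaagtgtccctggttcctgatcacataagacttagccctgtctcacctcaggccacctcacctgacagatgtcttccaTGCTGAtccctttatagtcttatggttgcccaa
Rxrg intron, chr1:167599956-167600156: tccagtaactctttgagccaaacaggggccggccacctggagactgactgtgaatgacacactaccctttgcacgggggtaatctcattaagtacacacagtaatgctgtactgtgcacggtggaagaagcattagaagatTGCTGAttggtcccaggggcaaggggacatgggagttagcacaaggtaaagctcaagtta
The first Thrb region, 47.7 kb downstream of the nearest start, holds 1 AGGTCA and had 76.8 and 81.0 normalized counts in pan-BC, 26.9 and 15.6 in OFF-BC, 92.6 and 171 in ON-BC, but 1.56 and 0 in rods (5.64 ± 0.59 for pan-BC against rods, adjusted p = 2.23e-06). This region was open where Thrb RNA was low. Of the 16 Thrb regions called in this comparison, 6 shared that direction and 10 went with the RNA, being less open in pan-BC. Among the 10, a region 3.3 kb upstream of the nearest start had 4.80 and 8.55 in pan-BC and 322 and 307 in rods. Blue cones had 68.6 and 96.1 there (-5.41 ± 0.36 for pan-BC against rods, adjusted p = 2.09e-08). The Rxra region, with 1 TAATCC, had 399.5 and 386 in rods against 199.5 and 256 in blue cones and 16.8 and 13.1 in pan-BC (-4.63 ± 0.26, adjusted p = 4.29e-09). The Rxrg region 43.8 kb upstream, with 2 TAATCC, had 46.4 and 36.5 in pan-BC, 46.6 and 31.8 in blue cones and 0 and 2.71 in rods (4.45 ± 0.63, adjusted p = 8.6e-05).

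Of the 12 regions called between ON-BC and OFF-BC, 7 were more open in OFF-BC and 5 in ON-BC, where 2.8% and 4.58% of all regions were. At Thrb 3 were more open in OFF-BC and 2 in ON-BC. Both OFF-BC regions shown were also open in cones. The Thrb region lies 17.8 kb upstream of the isoform 2 start and holds 1 TGCTGA. It had 55.2 and 27.3 normalized counts in OFF-BC, 1.49 and 1.46 in ON-BC, 145 to 194 in the 4 cone libraries and 34.3 and 57.6 in rods (ON-BC against OFF-BC -4.01 ± 0.41, adjusted p = 0.000173, called in all 18 other settings). The Rxrg region, 1.7 kb inside the gene and also with 1 TGCTGA, had 33.7 and 14.6 in OFF-BC, 0 and 2.93 in ON-BC and 69.0 to 123 in the 4 cone libraries (-3.55 ± 0.59, adjusted p = 0.00691), a call lost in 4 of 18 other settings, among them without ON-BC replicate 1 or OFF-BC replicate 1 (adjusted p over the 4 of 0.0744 to 0.177). Cone marker RNA was at a median of 1.99% to 8.82% of the blue cone mean in OFF-BC and of 0.990% to 1.26% in ON-BC, and its part in these regions was not tested. Over all 110715 regions, AGGTCA occurs in 15.7%, TAATCC in 21.8%, TAATTA in 5.22% and TGCTGA in 17.9%, and among the 233 regions nearest a receptor in 18.0%, 27.0%, 4.72% and 17.2%.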

How the data were processed

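RNA-seq was available for 15 libraries and ATAC-seq for 12, and peak lists for 14. For RNA-seq, the authors mapped reads with STAR (GRCm38) and used HTSeq to count over RefSeq genes. For ATAC-seq they mapped with Bowtie2, filtered duplicates with Picard and ran MACS2 on every library. The deposited tables hold a signal per gene or per region around a peak summit, namely counts that the authors divided by 1 size factor per library. Dividing by the value of a single read in each library gave whole reads (tolerance 0.01) for 100.0% of the values above 0. The deposited peak files give the fold enrichment (a ratio) and the −log10 q-value of each peak, and only the presence of a peak was used.

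Genes and regions were kept by filterByExpr (edgeR 4.0.16) on the recovered reads by population, which left 14024 of 24062 genes and 108448 of 110715 regions. Log2(normalized count + 1) was fitted with limma 3.58.1 in R 4.3.3 over all libraries of an assay, 1 level per population, and treat (trend on) asked whether each difference exceeded 1 on the log2 scale. The Benjamini-Hochberg adjustment covered all features of an assay, and an adjusted p below 0.05 was a call. The added 1 understates the changes of genes with few reads. The tests were checked on simulated counts, where of 100 genes changed 4-fold between pan-BC and rods limma called 91 and no unchanged gene, and of 100 regions 49. The changed genes and regions were drawn only from those above a minimum mean count, so these numbers do not cover features with few reads. Unchanged genes were simulated with no difference at all, whereas the test asks for more than 1 on the log2 scale. Their lack of calls therefore says little about false calls near that threshold. Regions were assigned to the nearest RefSeq start site. Levels per kb used the union of RefSeq exons. Sequences are from RefSeq (GRCm38.p6), and 9 of the 10 genes matched the promoter table. The motif words were chosen with these results known.

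Named besides the 10 members were, per fixed gene list, at most 4 called genes with the largest log2 fold change over the 4 comparisons, or all where 5 or fewer were called, the 3 genes of most similar profile, and Nrl. Genes of these lists that are withheld are counted but not reported here by name. The members and lists were chosen with earlier results of these data known. Per the labels, same-numbered ON-BC and OFF-BC libraries come from mice of the same age (day 43, 48 and 42 for RNA-seq, 42 and 46 for ATAC-seq). They may thus be paired, although their deviations from the population means were not all correlated (r = -0.0763, 0.222 and -0.0649 for RNA-seq). The main fit has no block, so it treats these libraries as unpaired, and the blocked fit is an alternative. For RNA-seq the blocked fit held only the 2 populations compared. Alternatives were edgeR and DESeq2 1.42.0 on the recovered reads, a test against 0, other pseudocounts, scalings and filters, fits of 2 populations, a replicate block, and each library left out.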

Additional observations from a re-analysis of the deposited data

How the results depend on the processing

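Of 996 values of the 40 receptor comparisons under other settings, 983 kept their direction and their side of the threshold and none reversed. Nr2e3 between pan-BC and blue cones lost its call in 8 settings, with adjusted p of 0.0528 to 0.186, Rorb between rods and blue cones in 2 (0.0503 and 0.0724) and Rxra between pan-BC and blue cones with library totals alone (0.0502). Tested against 0 with a fitted log2 fold change of at least 1, 4 receptors instead of 2 were called between ON-BC and OFF-BC (2002 instead of 919 of all genes, and 4302 instead of 2231 between rods and blue cones), the added ones being Rxra (1.02, adjusted p = 0.00899) and Rxrg (-2.13, adjusted p = 0.0439). DESeq2 gave no adjusted p for Rxrg. Scaling by library totals moved the median of all genes by 0.34 for pan-BC against rods and 0.27 against blue cones, and the share of higher calls in the first from 63.8% to 74.0%.

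Leaving out single libraries gave 6 to 7 called receptors for pan-BC against blue cones, where 4706 to 5097 of all 14024 genes were called, against 5092 in the main fit. For rods against blue cones it gave 3 to 4 receptors, where 2007 to 2361 of all genes were called, against 2231. Regions near receptors called between ON-BC and OFF-BC numbered 28 with edgeR, 6 with DESeq2, and 5 to 13 with single libraries left out, instead of 12, falling to 6 without ON-BC replicate 1 and to 5 without OFF-BC replicate 1. Between rods and blue cones they numbered 27 with a pseudocount of 8 and 25 to 45 with single libraries left out, instead of 42, with 25 without rod replicate 1 and 25 without blue cone replicate 2. The calls over all regions under these settings are not given here, so a shift over all regions cannot be told from one near the receptors. The labels tie no replicate numbers together in the comparisons with photoreceptors. For ON-BC and OFF-BC, libraries of the same number share an age. The replicate block there changed no receptor call (Nr2e3 adjusted p = 0.00333, Esrrb 0.0208) and kept all 12 called regions. With the replicate block, 7 receptors and 118 regions were called for pan-BC against rods, and 6 and 75 for pan-BC against blue cones. It gave 2 and 14 for ON-BC against OFF-BC, and 3 and 41 for rods against blue cones. For RNA-seq this block was fitted on only the 2 populations compared. Of all 14024 genes, these RNA-seq fits called 6306, 4837, 945 and 1633 in the same order. Fits of the same 2 populations without the block called 6341, 5014, 969 and 1857. Low-count receptors such as Rxrg in ON-BC and the ATAC-seq regions, at 2 libraries per population, limit what can be called.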
